A study of Mus musculus with 30 samples.

Results

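The spleens of lincRNA-Cox2 knockout mice given PBS were compared with those of wild type mice given PBS, that is, without an inflammatory stimulus. The comparison holds 4 of the 30 libraries of the study, 2 knockout and 2 wild type, and all 18845 entries of the deposited spleen table. All mice carried the strain label C57BL/6 and were 8 weeks old. Messenger RNA of the whole spleen was sequenced. The study also has a line labelled lincRNA-Cox2 mutant, lungs of the same 3 genotypes, and mice sampled 6 h after intraperitoneal lipopolysaccharide (LPS, 20 mg/kg), which are used here only as points of reference. The labels do not describe the genetic change in either line, the route or time of the PBS, or whether the 2 libraries of a group are separate animals, so any p-value measures the spread between libraries only.

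LincRNA-Cox2 is a long noncoding RNA whose gene lies beside Ptgs2, the gene of cyclooxygenase 2, and it is induced by Toll-like receptor signalling in macrophages. The spleen filters blood and holds lymphocytes together with macrophages, monocytes and neutrophils that respond to such signals. Interferons act on nearly all of these cells: their receptors activate transcription factors that switch on interferon-stimulated genes through a DNA element built from repeats of GAAA.

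The table gives each group as 1 mean of normalized counts, most of them rounded to 3 significant digits, and no value per library. From the spacing of low means, which is set by the worth of 1 read in each library, the wild type libraries were estimated at 8.33 and 6.38 M reads and the knockout libraries at 8.95 and 3.98 M reads. For 72 entries the wild type mean was written to 6 decimals, and for 70 of these only 1 pair of whole read counts gave the mean, which returned both wild type libraries. They are called here the deeper and the shallower wild type library, since the table does not say which sample is which. The 70 are not a random sample, because the entries so written are those with small adjusted p-values in some comparison. The knockout means could not be resolved in this way.

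The 2 wild type libraries stood apart from each other in the genes that matter most below. Among the 58 resolved entries that the authors did not call in this comparison, the median ratio of the deeper to the shallower library was 1.01, and 6 differed by at least 2-fold (Aadac, Cpb2, Cyp3a11, Procr, Chil1 and Retnlg). Among the 12 they called, the ratio ran from 2.62 to 9.59 with a median of 3.73, and the deeper library was the higher one for each. Both wild type and knockout groups contained female and male RNA: Xist, the RNA of the inactive X chromosome, had a mean of 2470 in wild type and 3510 in knockout, and the Y-linked Ddx3y, in the more abundant of its 2 entries, 198 and 234. Whether the sex of a library goes with its interferon level was not tested.

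The targeted locus was read at very low levels at rest. LincRNA-Cox2 (listed as Lincrna-cox2, chr1:150159043-150164948 in mm10) had a wild type mean of 2.13 normalized counts, from 6 reads in the deeper and 3 in the shallower library, and 0 reads in both knockout libraries and both mutant libraries. The wild type mean was 1.59 times the 1.34 that 3 reads in the shallower knockout library would give. That value leaves out the counting error of the wild type reads. Ptgs2 (chr1:150100031-150108234) had a mean of 8.89 in wild type, from 27 and 11 reads, of 1.29 in knockout, from 2 and 2 reads, and of 5.13 in mutant, from 18 and 1 reads. The knockout was thus the lowest of the 3 genotypes, and the authors' deposited table gives no adjusted p for either gene in this comparison. The intervals such counts allow are wide, and they cover counting error only.

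Other genes of prostanoid synthesis were more abundant. Low entries were set aside unless the wild type or the knockout mean reached 10, so lincRNA-Cox2 and Ptgs2 are not counted here. Of the 25 prostanoid and locus entries left, 4 were at least 2-fold lower in the knockout and 0 higher (3.02% and 0.861% of all 13353 entries left), and the median log2 ratio was -0.17. Alox15, which oxygenates arachidonic acid at another carbon than cyclooxygenases do, had means of 55.8 in wild type and 11.3 in knockout, the lowest ratio of the list. Lta4h, an enzyme of the leukotriene branch, had 393 and 409. Pla2g4a, which releases arachidonic acid and whose gene is another neighbour of Ptgs2, had 104 and 47.5 (chosen after its value was seen).

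In the authors' deposited table, 5 of 3124 tested entries passed an adjusted p under 0.05 in this comparison, all lower in the knockout (0.16% of those tested), and 0 were higher. At the authors' own limit of 0.1 the number was 12, again all lower (0.384%), and 0 higher. The remaining entries of the table have no adjusted p here: those tested had a mean over all 15 spleen libraries of at least 319, a level that LPS-induced genes reach through the LPS libraries. These 12 are referred to as the called genes.

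Slfn4, a Schlafen gene of myeloid cells that interferon and LPS induce, had the largest difference among them. It stood at 1431 normalized counts in the deeper wild type library and 149 in the shallower, with means of 88.2 in knockout and 106 in mutant. In the authors' deposited table its log2 fold was -2.45 (adjusted p 0.0295). Both wild type libraries lay above the knockout mean, but the shallower one lay much closer to it than to the deeper one.

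Ifit1, which binds viral RNA lacking a mature cap, stood at 1436 and 444 in the deeper and shallower wild type libraries against a mean of 213 in knockout. Irf7, the factor that amplifies interferon production, stood at 1939 and 470.4 against 274. Ifi44, an interferon-induced cytoplasmic protein, stood at 424 and 127 against 53.2. All 3 genes fell in the authors' deposited table, by log2 folds of -1.88, -1.86 and -2.01 (adjusted p 0.0295 for each). For Ifit1 and Ifi44 no split of the knockout mean over 2 libraries could bring either up to the shallower wild type library, since a knockout library could reach at most 427 and 106.5. For the other called genes the knockout mean lay below both wild type libraries, but 1 of its 2 libraries could have overlapped them.

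Mmp3, a matrix metalloproteinase of stromal cells, was the fifth gene under 0.05. It stood at 167 and 31.4 against a knockout mean of 18.6, and fell by a log2 fold of -2.02 in the authors' deposited table (adjusted p 0.0295). Its shallower wild type value was closer to the knockout mean of 18.6 and the mutant mean of 17.7 than to the deeper library.

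The other 7 called genes passed only the limit of 0.1, with adjusted p-values from 0.0748 to 0.0990 in the authors' deposited table. Of the antiviral oligoadenylate synthetase family, Oasl2 stood at 1648 and 533 in the wild type libraries against 318 in knockout, and Oas2 at 564 and 215 against 126. I830012O16Rik, now named Ifit3b, a near-identical copy of Ifit3 with which it may share reads, stood at 446 and 141 against 82.3. Gbp10, a guanylate-binding protein gene that interferon gamma induces and a member of none of the lists below, stood at 986 and 365 against 204. These 4 are interferon-induced genes.

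The last 3 are expressed in myeloid cells. Il1rn, the secreted antagonist of the interleukin 1 receptor, stood at 394 and 72.4 against 46.5. Fpr2, a formyl peptide receptor of neutrophils and monocytes, stood at 371 and 75.2 against 46.3. Ms4a6d, a membrane protein of macrophages, stood at 362 and 44.3 against 30.7. In all 3 the shallower wild type library lay less than 2-fold above the knockout mean.

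Taken alone, the shallower wild type library gave much smaller differences. It lay above the knockout mean for 12 of 12 called genes, by 1.44-fold to 2.38-fold with a median of 1.70, and by at least 2-fold for 2 of 12. The deeper library alone lay 4.47-fold to 16.2-fold above, with a median of 7.52. The size of the called differences therefore depended largely on 1 library. The knockout mean was below either wild type library, but the genes were called from these same libraries, so the shared direction is no separate support.

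**Figure D1:**
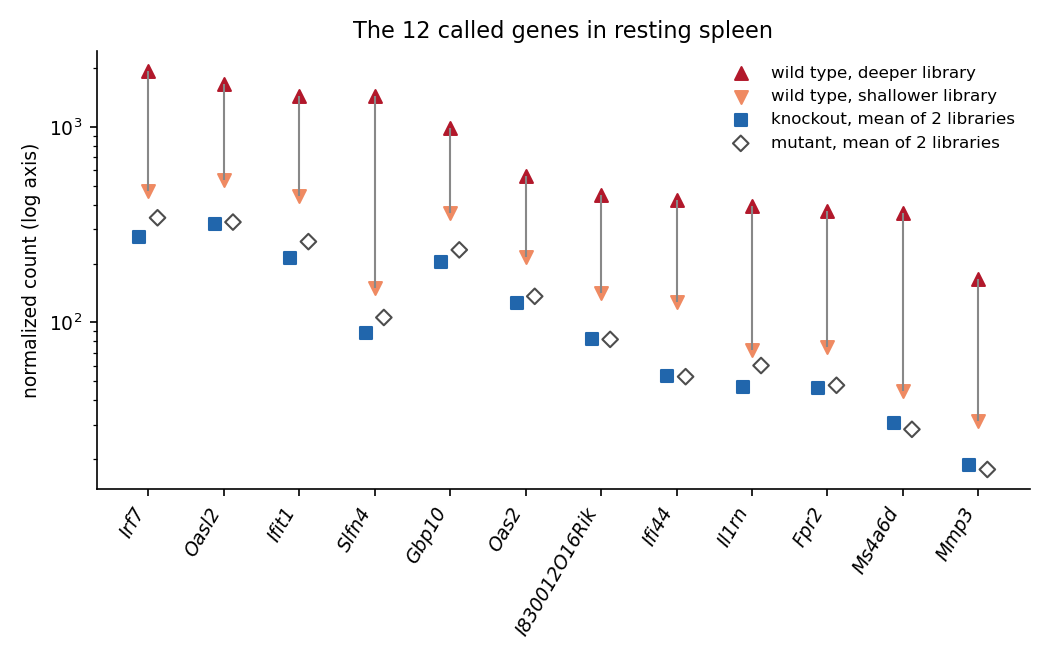
Normalized counts (log axis) of the 12 called genes: triangles are the 2 recovered wild type libraries joined by a line, squares the knockout mean and diamonds the mutant mean, each over 2 libraries. The knockout mean lies below both wild type libraries for each gene, and the shallower wild type library lies 1.44-fold to 2.38-fold above it.

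Sequence upstream of 3 members of the type I interferon list is shown to make the element concrete: the called Ifit1, and Isg15 and Rsad2, which were chosen after their values were seen. They come from the RefSeq promoter table of GRCm38.p6 (mm10), run 5′ to 3′ on the strand of the gene, and end before its start. Capitals mark matches, on either strand, to the motif searched: GAAA, any 2 bases, then GAAA again. Overlapping matches are all marked.
Ifit1, chr19:34640765-34640833, plus strand: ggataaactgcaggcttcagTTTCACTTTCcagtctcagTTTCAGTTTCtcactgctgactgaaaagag
Isg15, chr4:156200855-156200916, minus strand: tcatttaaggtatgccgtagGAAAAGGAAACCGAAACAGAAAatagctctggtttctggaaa
Rsad2, chr12:26456543-26456592, minus strand: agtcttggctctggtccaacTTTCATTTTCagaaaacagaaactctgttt
Within the 250 bases before a start, 936 of 27025 genes of the table hold this motif (3.46%). Of the 12 called genes 9 had a window, and 2 of these held it, Ifit1 and Ifit3b. Of the 40 genes of the type I interferon list 29 had a window and 12 held it (41.4%). Of genes with a window, 11 of 20 held it in the list of interferon gamma GTPases and Irf1 targets (55.0%). In the B cell list 2 of 14 held it (14.3%), and in the hepatocyte list 0 of 20. A match is a description of the letters, and its absence from a window says nothing of a factor's binding.

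The type I interferon list as a whole had lower means in the knockout. All 40 of its 40 members reached a mean of 10, 40 of 40 had a log2 ratio below 0, and 23 were at least 2-fold lower, against 3.02% of the 13353 entries that reached it. The median log2 ratio of the list was -1.16, and that of all entries 0.00. Ratios ran from -2.35 for Ifi44 to -0.28 for Ifi27l2a. Of 39 members tested by the authors, 3 passed 0.05 and 5 passed 0.1 in their deposited table. Of these 40, only the 5 called members could be split into wild type libraries, so how far the list's level rests on the deeper library is known for those 5 alone.

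Uncalled members of high abundance had large differences of means too. Rsad2 (viperin, which makes a chain-terminating ribonucleotide) had a mean of 2120 in wild type, 472 in knockout and 799 in mutant, yet its adjusted p was 0.999 in the authors' deposited table. Isg15, the ubiquitin-like modifier, had 631, 180 and 269 (adjusted p 0.417, authors' deposited table). In both the knockout mean was the lowest of the 3 genotypes, and for neither does the table give the spread between libraries.

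The list of interferon gamma GTPases and Irf1 targets lay in the same direction. Of its 27 measured members 12 were at least 2-fold lower and 0 higher (all entries 3.02% and 0.861%). The median log2 ratio was -0.90, and 0 of 23 tested passed 0.1 in the authors' deposited table. Gbp2 was the lowest, at means of 1590 in wild type and 451 in knockout. Serpina3g, a serine protease inhibitor, had 1340 and 582. B2m, the light chain of MHC class I, had 7120 and 5510, so that the antigen presentation genes stood much closer to equal: 0 of 19 members of the MHC class I list were 2-fold apart. The transcript of interferon gamma itself, Ifng, was at 11.8 in wild type and 13.0 in knockout, and Ifnb1 (interferon beta) was listed at 0 in all resting spleen groups (both chosen after their values were seen).

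**Figure D2:**
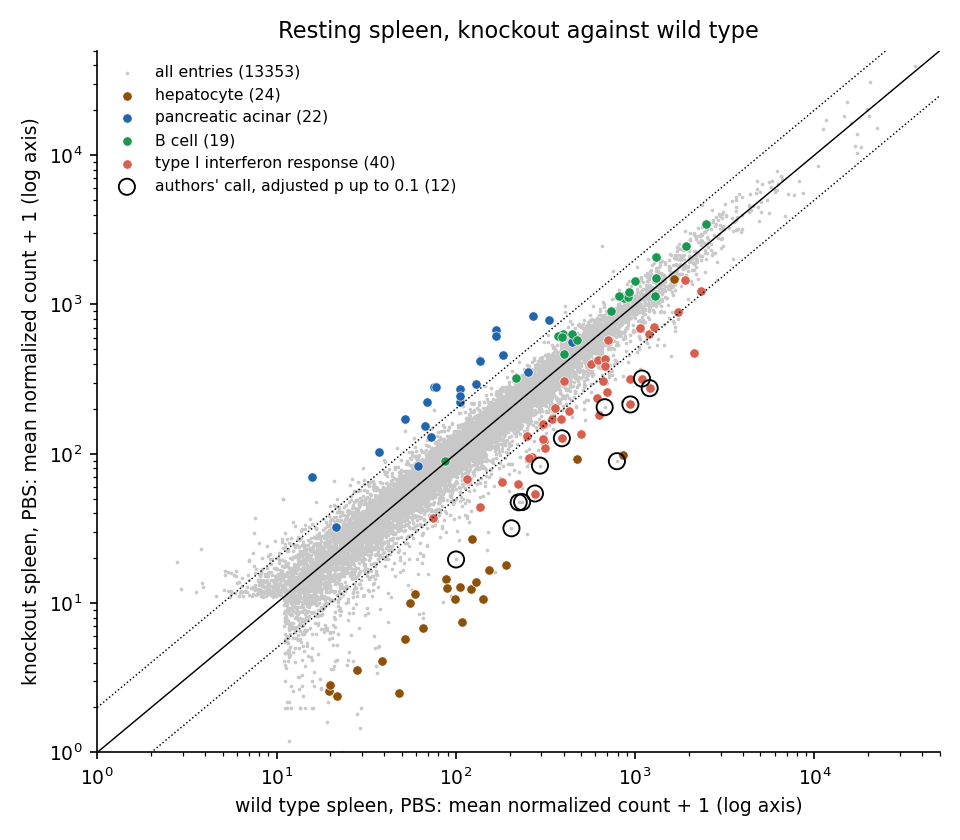
Mean normalized count plus 1 in knockout (vertical) against wild type (horizontal) resting spleen, both on log axes, for 13353 entries; the solid line is equality, the dotted lines are 2-fold, and circles mark the 12 called genes. Type I interferon members lie below equality, hepatocyte genes farther below, pancreatic genes above it.

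The other inflammatory lists had medians below 0 as well, except the immediate early genes. Of 25 chemokine entries, 9 were at least 2-fold lower and 0 higher (all entries 3.02% and 0.861%), with a median log2 ratio of -0.72. Ccl4, which draws monocytes and lymphocytes, had the lowest ratio, at means of 25.8 and 7.55, whereas Ccl5 had 419 and 354 and Ccl19, a chemokine of the T cell zone, 347 and 509. Of 16 inflammatory cytokine genes 2 were at least 2-fold lower, among them the called Il1rn, and the median was -0.39. Of 23 NF-kB targets and feedback inhibitors 1 was at least 2-fold lower, close to the share of all entries, and the median was -0.16. Nfkbia, the inhibitor that NF-kB itself induces, had 765 and 808. Immediate early genes had a median of 0.07, and 0 of 26 were 2-fold apart in either direction.

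Markers of neutrophils were lower in the knockout as well. Of 16 mature neutrophil entries 15 lay below 0 and 5 were at least 2-fold lower (all entries 3.02%), with a median log2 ratio of -0.72. Of 18 granule genes of immature neutrophils 18 lay below 0 and 5 were at least 2-fold lower, with a median of -0.80. By the authors' log2 fold in the deposited table, 3 mature and 1 granule entries were at least 2-fold lower. S100a9, a calcium-binding protein abundant in neutrophils, had means of 1370 in wild type and 893 in knockout, and Ngp, a granule protein, 1640 and 752. Pglyrp1, a peptidoglycan-binding protein, had the highest ratio of the mature list, at 153 and 177. In whole tissue, fewer cells of a type and less RNA per cell cannot be told apart.

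Resolved granule genes did not show the split between the wild type libraries that the called genes did. Ltf (lactoferrin) stood at 599 in the deeper and 839 in the shallower wild type library against a knockout mean of 390. Elane, neutrophil elastase, stood at 110 and 141, and Cd177, a neutrophil surface protein, at 119 and 113. Retnlg, of the mature list, stood at 213 and 97.1. Elane, Cd177 and Retnlg were chosen after their values were seen, from those whose libraries were recovered. Their part in the level of the called genes was not tested.

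**Figure D3:**
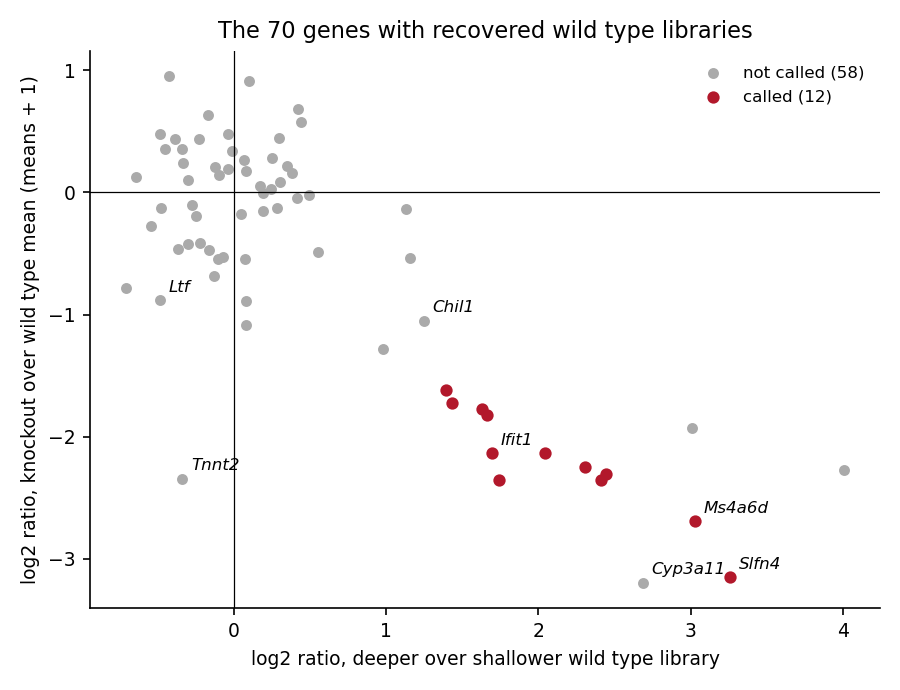
Each point is 1 of the 70 entries with recovered wild type libraries: the horizontal axis is the log2 ratio of the deeper over the shallower library and the vertical axis the log2 ratio of the knockout mean over the wild type mean. The axes share the wild type libraries; the 12 called genes lie at the lower right, Tnnt2 and Ltf to the left of 0.

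Monocyte and macrophage markers were mixed. Of 18 monocyte entries 2 were at least 2-fold lower (all entries 3.02%) and 14 lay below 0, with a median of -0.33. Lyz2, lysozyme, had 2660 and 2550. The red pulp macrophage list had a median of -0.01 over 19 entries. Of these 1 was at least 2-fold lower, close to the share of all entries: Vsig4, a complement receptor, at 14 and 3.43. Slc40a1, the iron exporter ferroportin, had 1800 and 1980. Among marginal zone and metallophilic macrophage genes, 3 of 10 were at least 2-fold higher and 1 lower (all entries 0.861% and 3.02%). Marco, a scavenger receptor of marginal zone macrophages, had 1050 and 506, and Clec4g, a lectin, 19.9 and 64.3. Megakaryocyte and platelet genes lay below 0 in 23 of 23 entries, with a median of -0.58 and 0 at least 2-fold lower. Stromal and matrix genes had a median of -0.53 over 44 entries, with 5 at least 2-fold lower, the lowest being Lum, a collagen-binding proteoglycan, at 52.9 and 12.3.

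B and T cell genes had slightly higher means in the knockout. Of 19 B cell entries 18 lay above 0, with a median log2 ratio of 0.40, and 0 were 2-fold apart. Cd79a, a chain of the B cell receptor complex, had means of 2490 in wild type and 3470 in knockout. T cell genes had a median of 0.27 over 27 entries, with Lck, the kinase of the T cell receptor, at 497 and 709. The NK and cytotoxic list lay the other way, with a median of -0.29 and 14 of 19 entries below 0. Of the 19, 3 were at least 2-fold lower and 0 higher (all entries 3.02% and 0.861%). Gzma and Gzmb, granzymes that cytotoxic cells release into their targets, had means of 301 and 145 and of 103 and 25.3. MHC class II genes, which B cells and dendritic cells express, had a median of 0.42 over 11 entries. Cytosolic ribosomal protein genes lay above 0 in 42 of 42 entries, with a median of 0.40 and 0 that were 2-fold apart. Of 16 tested B cell and 8 tested MHC class II entries, 0 passed 0.1 in the authors' deposited table.

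Genes of the germinal centre, where B cells mutate and switch their antibody genes, included the highest ratios of the lymphocyte lists. Of 11 entries that reached a mean of 10, 4 were at least 2-fold higher (0.861% of all entries). Each of the 4 passed the limit of 10 through the knockout, which favours a higher ratio. Mef2b, a transcription factor, had means of 7.02 in wild type, 24.4 in knockout and 8.83 in mutant, Rgs13 had 4.18, 15.4 and 9.45, and Mybl1 had 7.93, 19.6 and 10 (all 3 were chosen after their values were seen). Because of that choice, the place of the knockout mean above the other genotypes in these 3 genes is no separate support. Immunoglobulin heavy chain entries had higher knockout means too, at 656 and 2480 for mFLJ00385, and 751 and 1670 for Ighg. Such entries share reads with near-identical gene segments and are uncertain. The adjusted p for Ighg is 0.999 in the authors' deposited table.

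**Figure D4:**
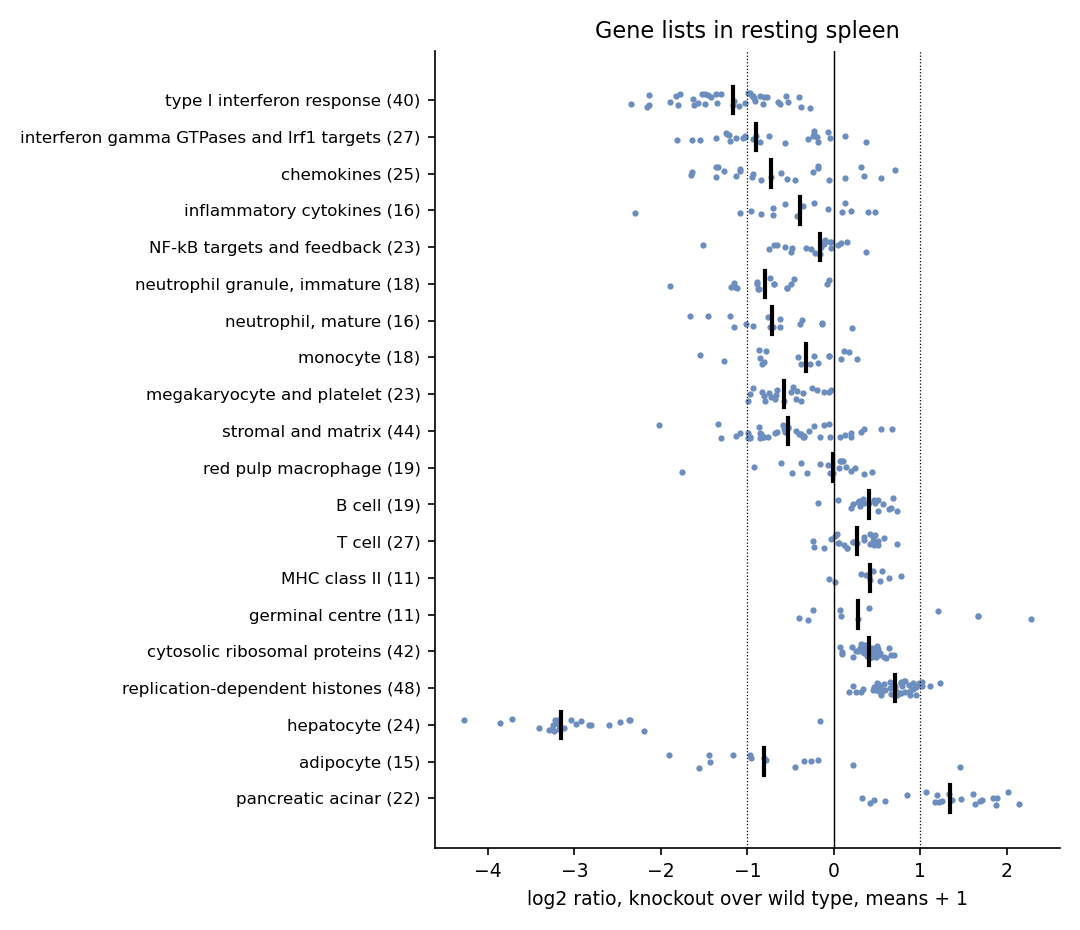
Log2 ratio of knockout over wild type means plus 1 in resting spleen for those members of 20 gene lists that reached a mean of 10; each point is 1 entry, bars are medians and dotted lines 2-fold. Both interferon lists, the chemokines and the neutrophil lists have medians from -1.16 to -0.72, and the B cell, MHC class II and ribosomal lists lie near 0.40.

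Over all 13353 entries, 403 were at least 2-fold lower (3.02%) and 115 higher (0.861%), at a median log2 ratio of 0.00. Of the 403, 35 belonged to the 2 interferon lists, 23 to the hepatocyte list and 291 to none of the 45 lists. Of the 115, 17 were pancreatic acinar genes and 85 were in no list. These counts come from means and carry no test.

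Genes typical of liver and pancreas gave the most extreme list medians. Of 24 hepatocyte entries that reached a mean of 10, 12 did so in the wild type only, which favours a lower ratio. Of the 24, 23 were at least 2-fold lower (all entries 3.02%), and the median log2 ratio was -3.15. Alb (albumin) had means of 855 in wild type, 97.1 in knockout and 8.27 in mutant, and Fgb, the fibrinogen beta chain, 141, 9.73 and 4.91. The summed level of the hepatocyte list was 4713 in wild type, 1848 in knockout and 1281 in mutant. Of the wild type libraries, Cyp3a11, a hepatic cytochrome chosen after its value was seen, stood at 36.1 in the deeper and 5.61 in the shallower. The pancreatic acinar list went the other way: 17 of 22 entries were at least 2-fold higher (all entries 0.861%), with a median of 1.35. Its summed level was 2949 in wild type, 7257 in knockout and 50376 in mutant. Cela2a, an elastase, had means of 166, 613 and 3880.

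The authors' deposited table gives far smaller folds for these genes, with list medians of -0.64 for hepatocyte and 0.11 for pancreatic genes. Adipocyte genes had a median log2 ratio of -0.81 and mesothelial genes one of -0.83. Cyp3a11 was higher in the deeper wild type library, as the called genes were. Alb and Fgb could not be split by library, so for the hepatocyte list as a whole this is not known. In resting lung, 11 of 21 hepatocyte and 22 of 22 pancreatic entries were at least 2-fold lower in the knockout (1.11% of all lung entries). The pancreatic list there thus lay the other way from spleen. Where the RNA of these organs came from was not tested, nor was its part in the differences of interferon and myeloid genes.

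A pair of adjacent genes on chromosome 1 had lower knockout means, and for 1 of them, Tnnt2, the wild type libraries could be recovered. Lad1, an anchoring filament protein of epithelia (chr1:135818598-135833341), had means of 124 in wild type, 12.2 in knockout and 36.4 in mutant, and was among the 12 lowest ratios of entries with a mean of at least 50. Tnnt2, cardiac troponin T (chr1:135836315-135852268; chosen after its value was seen), stood at 133 and 168 in the deeper and shallower wild type libraries against a knockout mean of 28.9 and a mutant mean of 86.4. Neither knockout library can have exceeded 57.9, so the groups did not overlap. The authors' deposited table gives neither gene an adjusted p at rest. The LPS libraries do not enter the resting means, although the mean over all 15 spleen libraries goes with which entries were tested at rest. With LPS, Tnnt2 had means of 79.7 in wild type and 22.9 in knockout. That fall passed the test in the authors' deposited table (log2 fold -1.68, adjusted p 0.0159). Of entries with a known position, chromosome 1 held 33 of the 399 lower ones (8.27%) and 756 of all 12915 (5.85%).

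The mutant line, set beside the knockout, shares the wild type libraries with it, so both comparisons carry the same wild type level. In the mutant, 21 of 40 type I interferon genes were at least 2-fold below wild type (all entries 3.04%), with a median log2 ratio of -1.01. The authors' deposited table calls 0 of 18357 tested entries there at 0.1. For the knockout only 3124 were tested, so the adjusted p-values of the 2 comparisons are not alike. In that table Ifi44 had log2 folds of -2.02 in mutant and -2.01 in knockout, with adjusted p-values of 0.254 and 0.0295. Knockout against mutant, which leaves out the wild type, gave a median of -0.07 for the list, with 0 of 40 at least 2-fold lower or higher (all entries 1.15% and 0.5%), and 0 of 18185 tested entries called at 0.1 in that table. Unadjusted p-values are not given in it. For the called genes the means were close, such as 53.2 in knockout and 52.8 in mutant for Ifi44 and 126 and 136 for Oas2.

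In resting lung, whose libraries are separate from those of spleen, the type I interferon list had a median log2 ratio of knockout over wild type of -0.81, with 16 of 40 genes at least 2-fold lower against 1.11% of all lung entries. The interferon gamma list had a median of -0.26 there, with 0 of 26 at least 2-fold lower. B cell genes had a median of 0.34 and ribosomal protein genes one of -0.38, the latter of the opposite sign to spleen. The labels do not say whether lung and spleen came from the same mice.

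With LPS, the spleen means of the called interferon genes were higher than at rest. Ifit1 had means of 5310 in wild type and 4656 in knockout, Irf7 4580 and 4376, and Slfn4 1240 and 1295. For Slfn4 the deeper wild type library at rest, at 1431, lay above the wild type mean with LPS. Over the 40 type I interferon genes the median log2 ratio with LPS was -0.10. Over the 27 interferon gamma entries it was 0.21, with 20 above 0, and Gbp2 had means of 8500 in wild type and 13100 in knockout. As a share of the LPS level of the same genotype, the resting level of the type I list had a median of 24.5% in wild type, 10.7% in knockout and 9.57% in mutant. Among the 12 called genes the wild type share was highest for Slfn4, at 63.7% against 6.81% in knockout. The LPS groups differ in sex markers from the resting ones, with Xist at 31.3 in wild type and 33.7 in knockout. They also differ from each other: Ddx3y, in its more abundant entry, had means of 705 in wild type, 601 in knockout and 14 in mutant. Neither difference was adjusted for.

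**Figure D5:**
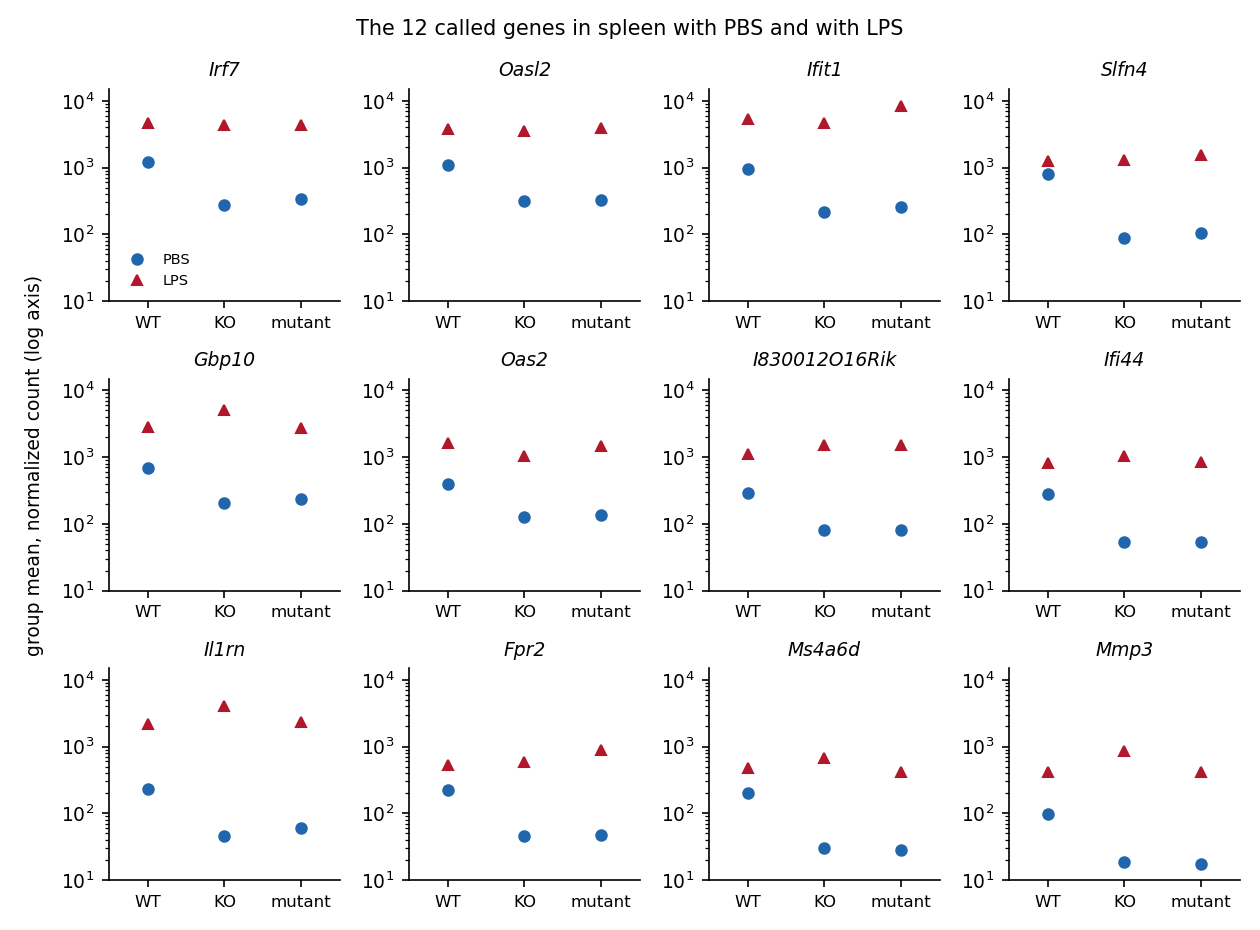
Group means in normalized counts (log axis) of the 12 called genes in wild type (WT), knockout (KO) and mutant spleen with PBS (circles, 2 libraries each) and LPS (triangles, 3 each). With PBS the wild type mean is above those of knockout and mutant in all 12 panels. With LPS the means lie closer, as for Irf7 at 4580 in wild type and 4376 in knockout. In some panels the knockout mean is then the higher, as for Gbp10 at 2860 and 5037.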

How the data were processed

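The labels put 2 libraries each into the wild type and knockout PBS groups. STAR 2.5.3a, Bowtie2, SAMtools, bedtools and DESeq2, with mm10, are named in the submitters' processing notes, without settings. Per the file headers, the deposited table holds group means of a normalized signal, the authors' log2 fold per comparison, and adjusted p-values and call marks, treated as a score. Of 18850 spleen lines 5 were broken and left out, and 1026 split symbols were rejoined. Repeated symbols (239) stayed separate. Whether reads were counted by strand is not given in the sources used here.

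No test on libraries was possible, so calls are the authors' DESeq2 comparisons. Ratios are log2 of means plus a pseudocount of 1, in entries where either group's mean reached 10, and 2-fold was the limit. Wild type libraries were recovered as whole reads; on data simulated from 18845 entries, 704 of 704 solved means were right. Positions came from RefSeq (97.6% of passing entries). The members and the 45 lists were chosen with earlier results of these data known. Candidates for naming were the locus, all called entries, the 12 highest and 12 lowest ratios among entries whose higher mean reached 50, and from each list the 3 most abundant members and the highest and lowest ratio. Other genes are said to be chosen after their values were seen. Some genes are not reported here.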

Additional observations from a re-analysis of the deposited data

How the results depend on the processing

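Only group means were deposited, so leaving out libraries was possible for recovered wild type means alone, an alternative chosen after seeing the data. Of the 12 called genes, between 2 and 12 were at least 2-fold lower, with median log2 ratios from -2.89 to -0.76 against -2.19 with both; of the 5 recovered interferon genes between 2 and 5, with medians from -2.75 to -0.78. The low ends come without the deeper wild type library. For all other results this alternative was not run. No paired analysis was possible because only group means were deposited. Calls numbered 12 in place of 5 at an adjusted p up to 0.1. Entries at least 2-fold lower, 403, became 779 with no filter, 198 at a mean of at least 50, 203 by the authors' log2 fold in the deposited table and 1030 at 1.5-fold; entries higher, 115, became 287, 40, 43 and 524, and 67 with a pseudocount of 5. By the authors' fold, 3 mature and 1 immature neutrophil entries were 2-fold lower in place of 5 and 5, 4 hepatocyte entries in place of 23, and 0 pancreatic entries were higher in place of 17; the medians were -0.64 for hepatocyte and 0.11 for pancreatic genes. With no filter 1 pancreatic entry was lower. List medians turned sign for immediate early genes (-0.0085) and muscle (-0.27) with no filter and for red pulp macrophages (0.0022) with equal totals; 259 of 270 list medians stayed within 1.5 times. The 8 others that moved kept their sign. The cause was not tested. Genes under about 10 normalized counts rest on few reads.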

Other observations

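Replication-dependent histone genes have transcripts that mostly lack a poly(A) tail. They had higher means in the knockout than in wild type in 48 of 48 entries that reached a mean of 10. Their median log2 ratio was 0.71, and 4 were at least 2-fold higher (all entries 0.861%). In the mutant the median over wild type was 2.02. Hist1h1e had means of 94.8 in wild type, 160 in knockout and 387 in mutant, while genes of the cell cycle list had a median of 0.08 in the knockout. Reads of near-identical histone copies cannot be assigned with certainty.

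A set of 3 single genes, chosen after their values were seen, had lower means in the knockout: Fasn (fatty acid synthase) at 908 in wild type and 413 in knockout, Elovl6 (a fatty acid elongase) at 196 and 55.4, and Me1 (malic enzyme) at 248 and 81.3. Their log2 ratios in lung were -0.15, 0.13 and 0.10. The adipocyte list was lower in the same spleen comparison, and its part was not tested.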
